A study of Mus musculus with 5 samples.

Results

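The Rhox genes are a family of homeobox genes, coding for DNA-binding proteins of the homeodomain class, that lie side by side on the mouse X chromosome and are expressed mainly in testis, ovary and placenta. The 7 members described here, Rhox1, Rhox5, Rhox8, Rhox10, Rhox11, Rhox12 and Rhox13, were chosen by symbol among the 27998 features of the count matrices, and all 7 were found. Another 27 features have symbols that begin with Rhox, most of them from the multi-copy families of the same block, and they enter only as a list for comparison. Rhox5, first described as Pem, is the best known member: it is an androgen-responsive gene of Sertoli cells, which line the seminiferous tubule and support the germ cells in it. Rhox8 is also a Sertoli cell gene, whereas Rhox10 is a gene of early spermatogonia that has been tied to the founding of the spermatogonial stem cell pool, and Rhox13 is a germ cell gene tied to the response to retinoic acid.

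In the GENCODE annotation of mm10 the 7 members span 916 kb of the X chromosome, in the order Rhox1 (chrX:37213804-37222258, minus strand, 5 exons), Rhox5 (chrX:37804842-37808876, plus strand, 4 exons), Rhox8 (chrX:37874778-37878944, minus strand, 4 exons), Rhox10 (chrX:38066475-38071691, plus strand, 3 exons), Rhox11 (chrX:38076594-38085141, minus strand, 3 exons), Rhox12 (chrX:38104077-38110907, minus strand, 4 exons) and Rhox13 (chrX:38121219-38129967, plus strand, 3 exons). The Rhox8 model overlaps the Rhox7b model of RefSeq on the same strand, and Rhox11 has pseudogene copies, so how the reads of these genes were split with those copies is uncertain.

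Whole testis of Mus musculus, with its spermatogenesis synchronized, was profiled by droplet single-cell RNA sequencing. The times were a control and later returns of stages VIII and IX of the seminiferous epithelial cycle. There was 1 library per time: a control at 0 h and the libraries EP1 to EP4 at 144, 350.4, 556.8 and 763.2 h. All 5 are synchronized testis, and the labels used here name neither strain, age, genotype or synchronizing agent nor the number of animals per library. The testes were digested with enzymes and the tubules left to settle with the supernatant thrown away, a step that can remove cells from between the tubules. With 1 library per time there is no replicate check: each difference below is a difference between libraries, its interval (95%, exact) covers counting error only, and no p-value is given.

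The libraries held 7441 to 11987 barcodes and 75578147 to 118147393 UMIs (unique molecular identifiers, each standing for 1 captured transcript), and 4695 to 11035 cells per library were kept, 38208 in all. Median depth of the kept cells ran from 3054 UMIs at 763.2 h to 12601 UMIs at 144 h. Pairs of libraries shared 11 to 37 barcodes. Cells were named class by class from marker genes and are called Sertoli-like, spermatogonia-like and so on, and the endings are dropped below. Unnamed cells made up 21.2% of the 144 h library and 21.3% of the 350.4 h library, against 0.194% to 5.90% elsewhere. Germ cells named at 0 h were 2156 undifferentiated spermatogonia, 5 differentiating spermatogonia and 3 at meiotic entry, with 13 more of no single stage. Spermatocytes were first named at 144 h and spermatids at 350.4 h. Time and germ cell make-up thus changed together and cannot be told apart, also for the Sertoli cells. Levels are given in CPM, the UMIs of a gene divided by the UMIs of all genes over the cells of a class in a library and scaled to 1000000. Because transcripts differ in how well they are captured, levels are compared within a gene and not between genes.

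The starts of 4 members that were high in successive germ cell classes are shown, so that the sequences before them can be set beside those levels. RefSeq (GRCm38.p6) gives a promoter window, 250 bases before to 50 after the start, for 6 of the 7 members, Rhox8 being without an entry. The lines give the 250 bases before the start, 5′ to 3′ on the strand of the gene, from the windows chrX:38066225-38066524 (Rhox10, plus strand), chrX:37222209-37222508 (Rhox1, minus strand), chrX:38120590-38120889 (Rhox13, plus strand) and chrX:38085090-38085389 (Rhox11, minus strand). Capitals mark the letters AGAACA on either strand, the core of glucocorticoid receptor and related steroid receptor sites.
Rhox10: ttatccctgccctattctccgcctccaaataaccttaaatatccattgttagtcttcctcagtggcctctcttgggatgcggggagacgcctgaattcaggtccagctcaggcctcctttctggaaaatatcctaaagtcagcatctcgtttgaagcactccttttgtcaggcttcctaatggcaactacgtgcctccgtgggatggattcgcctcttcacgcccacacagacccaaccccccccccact
Rhox1: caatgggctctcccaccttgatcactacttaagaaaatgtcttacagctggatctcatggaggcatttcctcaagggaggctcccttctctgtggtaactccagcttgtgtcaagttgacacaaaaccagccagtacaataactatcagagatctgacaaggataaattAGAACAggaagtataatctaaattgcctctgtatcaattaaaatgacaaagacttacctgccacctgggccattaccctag
Rhox13: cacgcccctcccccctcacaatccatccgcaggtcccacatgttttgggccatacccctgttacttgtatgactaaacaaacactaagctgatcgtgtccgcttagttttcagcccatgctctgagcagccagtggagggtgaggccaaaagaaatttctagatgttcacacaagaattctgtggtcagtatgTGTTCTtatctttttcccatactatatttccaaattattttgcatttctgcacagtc
Rhox11: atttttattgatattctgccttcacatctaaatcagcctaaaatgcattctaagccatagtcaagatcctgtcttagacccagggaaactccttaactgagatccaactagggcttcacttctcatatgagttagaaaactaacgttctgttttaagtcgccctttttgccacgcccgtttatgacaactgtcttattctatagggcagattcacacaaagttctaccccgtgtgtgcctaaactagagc

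Within each window of 300 bases both strands were searched for AGAACA, for AGGTCA (the core of sites of the retinoic acid and related nuclear receptors), for AGGTCANAGGTCA (a pair of such cores in direct repeat, which overlaps single AGGTCA matches by construction), for CNCCTCAG (the letters bound by STRA8 and MEIOSIN) and for TGACGTCA (the cyclic AMP response element). Of all 32851 RefSeq windows, 19.0% held AGAACA, 16.3% AGGTCA, 0.0396% the paired AGGTCANAGGTCA, 7.94% CNCCTCAG and 1.79% TGACGTCA. Rhox1 carried the pair, at window bases 286 to 298, just after the start (chrX:37222209-37222230, minus strand, the pair in capitals).
Rhox1 pair: ggggcaaAGGTCATAGGTCAca
The pair stands in 13 of the 32851 windows. Rhox1 and Rhox13 each held 1 AGAACA match, that of Rhox13 on the other strand (TGTTCT), Rhox5 held 1 on the other strand and Rhox12 held 1 AGGTCA. Rhox10 and Rhox11 held none of the 5 sets of letters, and no member window held CNCCTCAG or TGACGTCA. CpG dinucleotides per window numbered 0 in Rhox1, 3 in Rhox12, 5 in Rhox5, 5 in Rhox13, 7 in Rhox11 and 9 in Rhox10, against a median of 7 over all windows. The RefSeq start of Rhox5 lies 50234 bases from its GENCODE start, so its window is not shown. The AGAACA match and CpG count of Rhox5 belong to that RefSeq window, and the sequence before the GENCODE start was not searched. Which start was used in these cells was not tested. The RefSeq start of Rhox13 lies 379 bases from its GENCODE start.

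Each of the 6 detected members had its highest levels in its own class or pair of classes. Rhox5 and Rhox8 were highest in Sertoli cells, Rhox10 in undifferentiated spermatogonia and Rhox1 in undifferentiated spermatogonia and again at meiotic entry. Rhox13 was highest at meiotic entry and Rhox11 in round spermatids. Within the 0 h library alone, Rhox5 was higher in the 34 endothelial cells (38.7 CPM) than in Sertoli cells (24.1 CPM). Over all barcodes the files held 201728 UMIs of Rhox8, 25212 of Rhox13, 15449 of Rhox5, 3978 of Rhox1, 3359 of Rhox10 and 1429 of Rhox11. Rhox12 had 17 UMIs in 16 barcodes, 15 of them in kept cells, and is not described further.

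**Figure D1:**
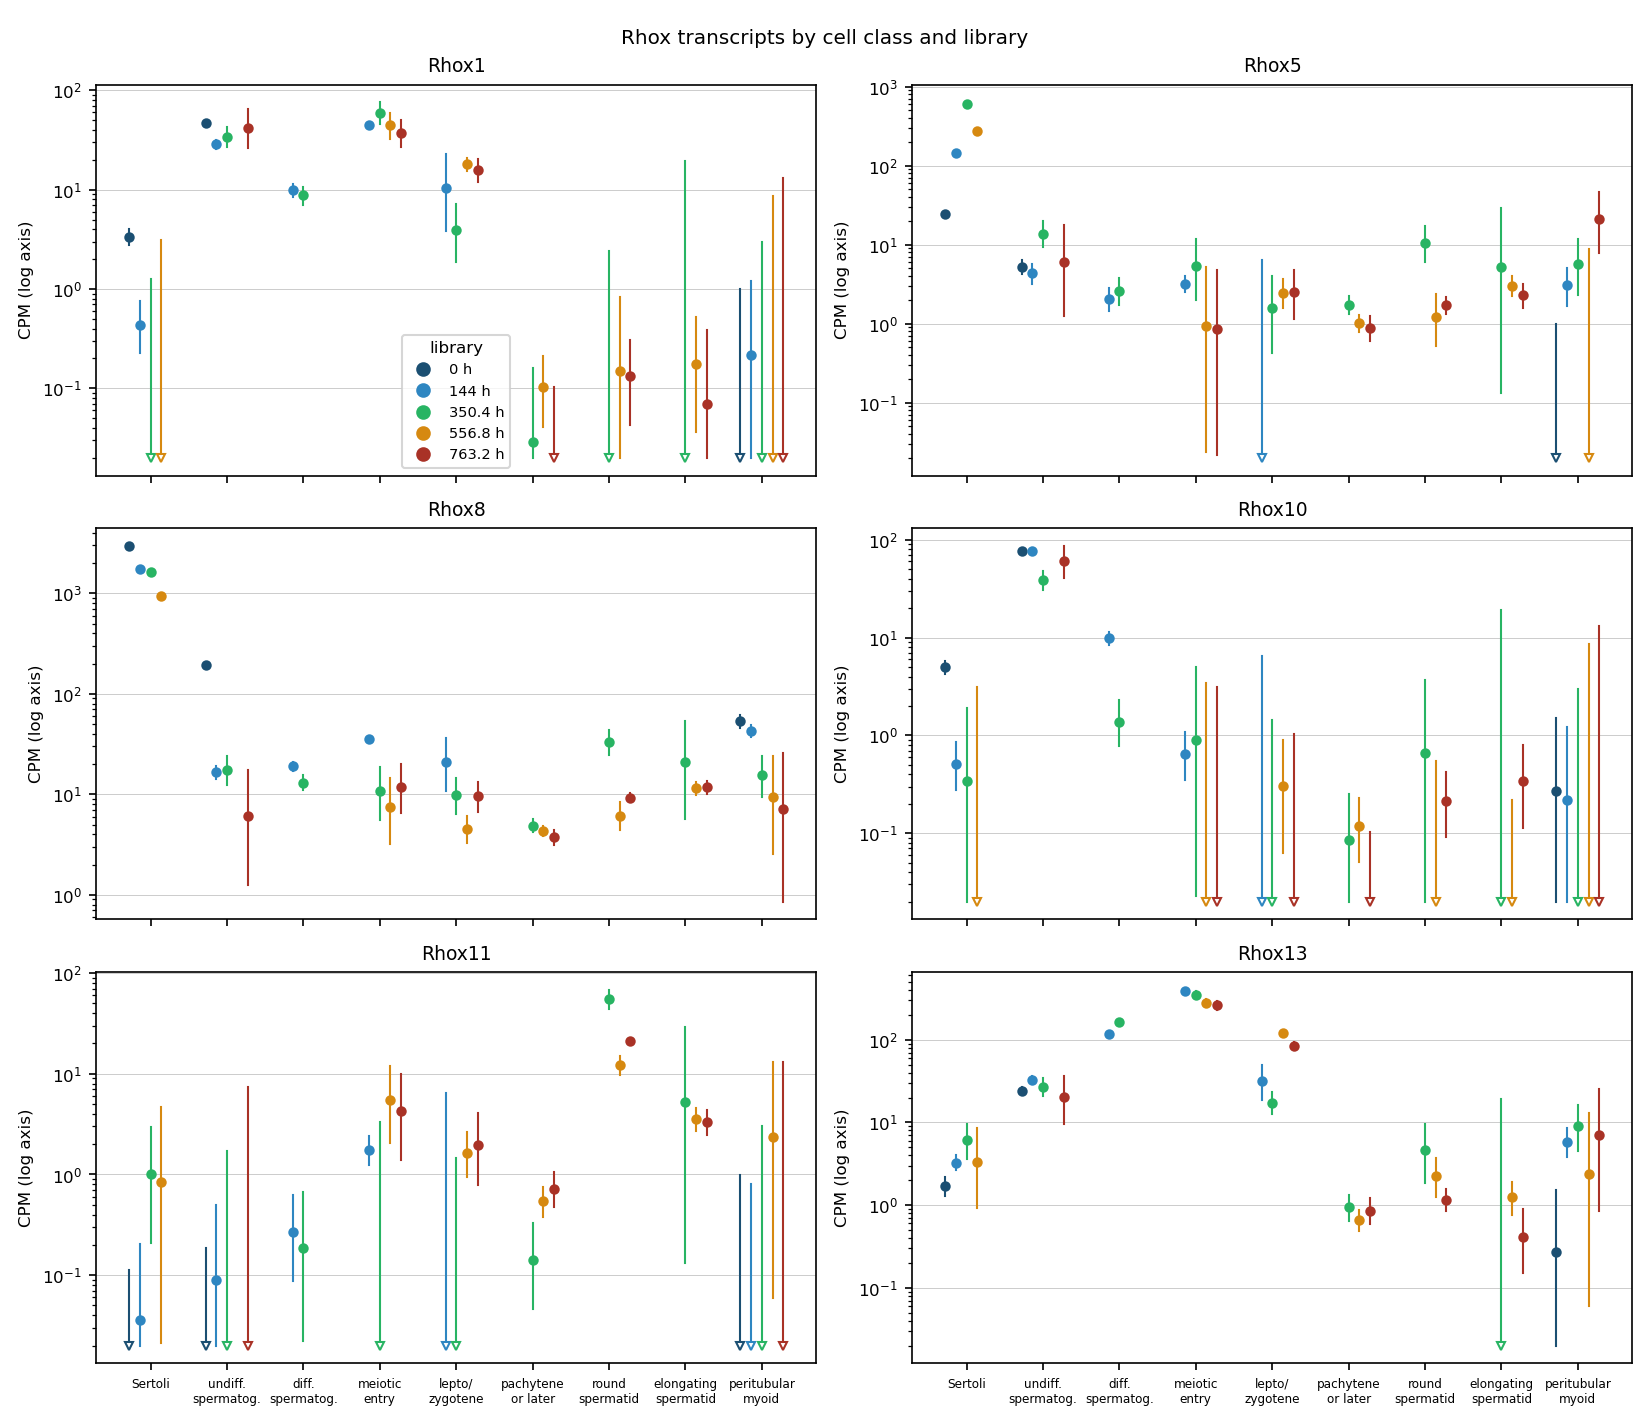
CPM of 6 Rhox genes (log axis) in Sertoli-like cells, 7 germ cell classes and peritubular myoid cells, coloured by library. Points are summed UMIs with exact 95% Poisson intervals, open triangles mark 0 UMIs, and Rhox10 stands above 38 CPM in undifferentiated spermatogonia while Rhox13 stands above 259 CPM at meiotic entry.

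Rhox5 was the member whose Sertoli cell level differed most between times. In the testis its transcript comes from a proximal promoter that responds to androgen. In Sertoli cells it stood at 24.1 CPM (22.4 to 25.8, 785 UMIs in 2388 cells) at 0 h, 143 CPM (138 to 147, 3942 UMIs in 1291 cells) at 144 h, 605 CPM (577 to 633, 1784 UMIs in 546 cells) at 350.4 h and 271 CPM (242 to 302, 322 UMIs in 47 cells) at 556.8 h. Only 16 Sertoli cells passed the filters at 763.2 h, fewer than the 20 required, so the last library is given below with a wider mitochondrial limit. The level was lowest at 0 h and highest at 350.4 h, and none of the 4 counting intervals overlapped. The ratios of neighbouring libraries were 5.93 (5.49 to 6.41) for 144 over 0 h, 4.23 (4.00 to 4.48) for 350.4 over 144 h and 0.448 (0.397 to 0.505) for 556.8 over 350.4 h.

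The same order of libraries held when depth was made equal. With each Sertoli cell thinned to 1000 UMIs, the share of cells with a Rhox5 UMI was 2.39%, 13.6%, 40.7% and 27.7% at 0, 144, 350.4 and 556.8 h. At the same depth the share was 0.366% of macrophages and 0 of 282 peritubular myoid cells at 0 h. Not every other class was this low. Without thinning, endothelial cells stood at 38.7 CPM at 0 h (34 cells), against 24.1 CPM in Sertoli cells. Macrophages stood at 37.0 CPM at 144 h (39 cells), against 143 CPM in Sertoli cells. Among Sertoli cells of at least 10000 UMIs, unthinned, Rhox5 was found in 25.5% of 1000 cells at 0 h, 78.6% of 1167 at 144 h, 98.5% of 66 at 350.4 h and 93.5% of 46 at 556.8 h, with medians of 0, 2, 14 and 5 UMIs per cell. At 0 h most deep Sertoli cells thus had no Rhox5 UMI, and at 350.4 h all but 1 had at least 1.

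Different clusters held the Sertoli cells at different times. The 0 h cells lay in clusters 3, 16 and 52, with Rhox5 at 24.7, 22.9 and 32.1 CPM. The 144 h cells lay mainly in clusters 14 and 28, with 129 and 166 CPM, and 30 cells of a small cluster 62 had 25.6 CPM. At 350.4 h they lay in cluster 29 (623 CPM, 480 cells) and cluster 55 (615 CPM, 61 cells), and cluster 55 also held 44 of the 556.8 h cells, at 256 CPM. Apart from cluster 55, each of these clusters came almost wholly from a single library, so libraries could be compared within cluster 55 only. Between clusters, other than cluster 62, the levels stood in the order of the libraries given above. The place of 556.8 h in that order was not stable. With cells under 10% mitochondrial UMIs, the log2 ratio of Rhox5 was 2.58 for 350.4 over 144 h and −3.59 for 556.8 over 350.4 h. The level at 556.8 h then lay below that at 144 h. A further cluster of 1080 shallow cells of 144 h (cluster 8, median 1659 UMIs) scored highest for Sertoli and was left unnamed for its depth. Rhox5 stood at 183 CPM and Rhox8 at 2163 CPM in it. With it and the 3 other unnamed clusters that scored highest for Sertoli taken in, an alternative chosen after seeing the data, the log2 ratio of Rhox5 was 2.60 for 144 over 0 h (2.57 without them) and −1.85 for 556.8 over 350.4 h (−1.16 without them). All 9 Sertoli markers, from which the class was named, were detected in it in all 4 libraries. All 9 were also detected in undifferentiated spermatogonia at 0 h, at a summed 1018 CPM. In the Sertoli cells they summed to 14368, 19687, 18485 and 14054 CPM in order of time. Rhox5 amounted to 0.168%, 0.726%, 3.27% and 1.93% of that sum. Transcripts of elongating spermatids also moved along: their 8 markers summed to 1.81, 0.652, 353 and 4284 CPM in the Sertoli cells of the 4 libraries, and their part in the levels was not tested.

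Rhox8, which lies next to Rhox5 among the members and is transcribed from the other strand, was lower at 144 h than at 0 h, where Rhox5 was higher, and like Rhox5 was lower at 556.8 h than at 350.4 h. In Sertoli cells it stood at 2923 CPM at 0 h (95202 UMIs), 1743 CPM at 144 h (48090 UMIs), 1643 CPM at 350.4 h (4848 UMIs) and 942 CPM at 556.8 h (1120 UMIs). The level was highest at 0 h and lowest at 556.8 h, with little between 144 and 350.4 h. The ratios were 0.596 (0.590 to 0.603) for 144 over 0 h, 0.942 (0.915 to 0.971) for 350.4 over 144 h and 0.574 (0.537 to 0.612) for 556.8 over 350.4 h. The 350.4 over 144 h difference changed direction with the mitochondrial limit, from −0.09 on the log2 scale as given to 0.21 with cells under 10% mitochondrial UMIs.

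Single deep Sertoli cells nearly always held Rhox8. Among cells of at least 10000 UMIs it was found in 99.9%, 99.8%, 98.5% and 100% at 0, 144, 350.4 and 556.8 h, with medians of 61, 36, 50 and 22 UMIs per cell. No deep Sertoli cell in these 4 libraries had a Rhox5 UMI without a Rhox8 UMI. The share thinned to 1000 UMIs was 92.9%, 81.2%, 72% and 61.7%.

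Rhox8 UMIs were also found in every other class at 0 h. Rhox8 stood at 1059 CPM in red blood cells, 544 CPM in stromal cells, 489 CPM in macrophages, 288 CPM in Leydig cells, 193 CPM in undifferentiated spermatogonia and 53.0 CPM in peritubular myoid cells of the 0 h library. As a share of the summed Sertoli markers of the same cells this was 18.0%, 18.5%, 19.1%, 11.4%, 18.9% and 7.55%, against 20.3% in Sertoli cells. Endothelial cells (34 cells) and lymphocytes (26 cells) stood at 11.8% and 23.0%. The share was thus near that of Sertoli cells in some classes and lower in peritubular myoid, Leydig and endothelial cells. At 144 h the same classes other than red blood cells, which were not named there, were lower, at 43.4 CPM in stromal cells, 206 CPM in macrophages, 42.6 CPM in Leydig cells, 16.7 CPM in undifferentiated spermatogonia and 42.8 CPM in peritubular myoid cells. Their shares of the summed Sertoli markers were 3.32%, 6.498%, 2.08%, 4.74% and 4.28%, all below the 8.85% of Sertoli cells. The part of free RNA in these levels was not tested. In the germ cells of the later libraries Rhox8 lay between 3.76 and 33.0 CPM. Rhox5 outside Sertoli cells was at or under 21.2 CPM in all named classes and libraries except endothelial cells at 0 h (38.7 CPM, 13 UMIs) and macrophages at 144 h (37.0 CPM, 18 UMIs).

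**Figure D2:**
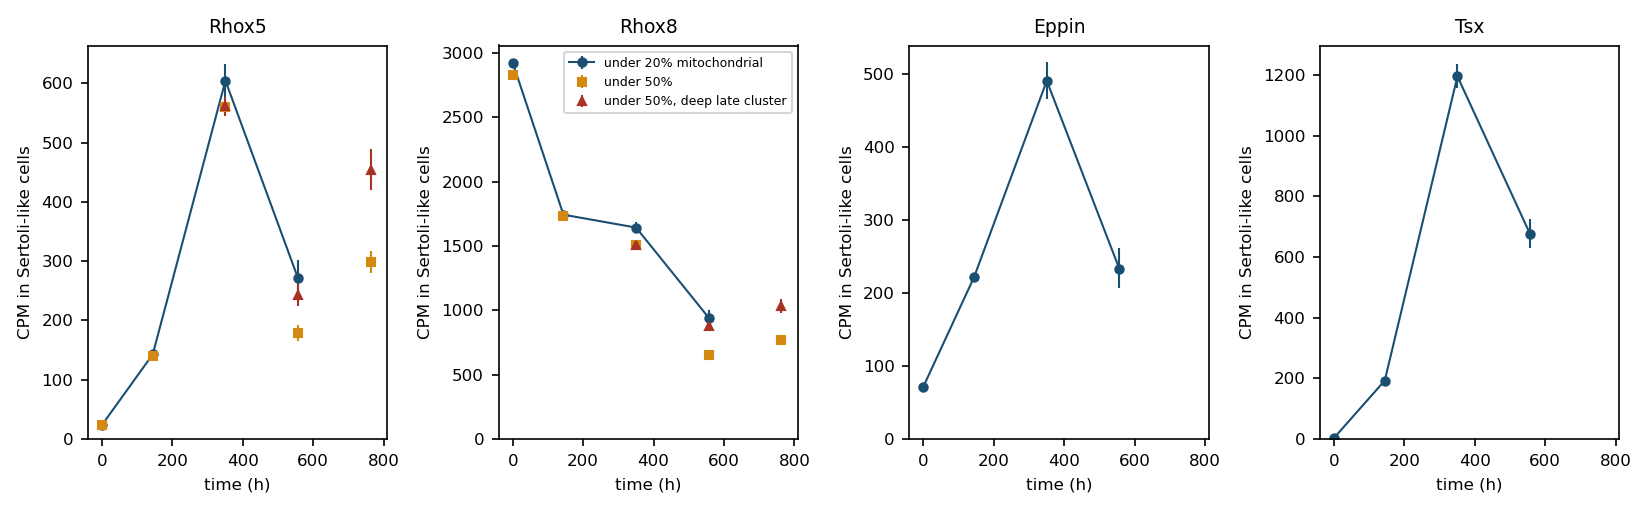
CPM of Rhox5, Rhox8, Eppin and Tsx in Sertoli-like cells against time (h), with exact 95% Poisson intervals. Circles are cells under 20% mitochondrial UMIs, squares (Rhox genes only) cells under 50% and triangles the deep late cluster of the latter; Rhox5, Eppin and Tsx are highest at 350.4 h (605, 491 and 1195 CPM), Rhox8 at 0 h (2923 CPM).

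The germ cell members were low in Sertoli cells. Rhox1 stood at 3.38, 0.435, 0 and 0 CPM and Rhox10 at 4.97, 0.507, 0.339 and 0 CPM at 0, 144, 350.4 and 556.8 h. Both were highest at 0 h, where the small Sertoli cluster 52 (175 cells) held 63.1 CPM of Rhox10 and 42.9 CPM of Rhox1. That cluster scored 2.68 for Sertoli and, next, 0.29 for undifferentiated spermatogonia, whose marker Upp1 was among its leading genes. At those levels it held most of the 110 UMIs of Rhox1 and 162 UMIs of Rhox10 in the 0 h Sertoli cells. The 0 h levels of both genes thus came mainly from this cluster, and their calls below include it. Rhox13 stood at 1.69, 3.26, 6.10 and 3.37 CPM, and Rhox11 had at most 3 UMIs in a library. Of the 5 members with at least 20 UMIs in the sums of 0 and 144 h together, 1 was at least 2-fold higher at 144 h (Rhox5), as were 11.5% of all features, and 2 were at least 2-fold lower (Rhox1 and Rhox10), as were 19.3%. From 144 to 350.4 h 1 of 3 was higher (Rhox5, background 15.0%) and 0 lower (background 8.88%). From 350.4 to 556.8 h 0 of 3 were higher (background 12.6%) and 1 lower (Rhox5, background 7.20%).

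The 14 genes listed for the androgen axis of Sertoli cells, chosen like all lists here with earlier results of these data known, were mostly higher at 144 than at 0 h. Of the 14, 9 were at least 2-fold higher and 3 at least 2-fold lower, against 11.5% and 19.3% of all 13742 features. The median log2 ratio of the 14 was 1.60, against −0.09 over all features. Eppin, an epididymal and Sertoli protease inhibitor induced by androgen, stood at 72, 222, 491 and 233 CPM at 0, 144, 350.4 and 556.8 h. Tsx, a testis-specific X-linked gene, stood at 3.99, 193, 1195 and 676 CPM. Like Rhox5, Eppin and Tsx had their lowest level at 0 h and their highest at 350.4 h. The 3 lower genes were Fshr, the follicle-stimulating hormone receptor (ratio 0.406), Tubb2b (0.0352) and Ptgds (0.129).

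From 144 to 350.4 h 8 of the 14 were at least 2-fold higher and 0 lower, against 15.0% and 8.88% of all features. The median log2 ratio of the 14 was 1.21, against 0.02 over all features. Eppin was higher by 2.21-fold, Tsx by 6.20-fold and Cldn3, a tight junction protein, by 19.5-fold. From 350.4 to 556.8 h 0 of the 13 tested were higher and 2 were lower, Eppin (0.475) and Aqp8 (0.259). Of all features 12.6% were higher and 7.20% lower. The median log2 ratio of the 13 was −0.13, against −0.03 over all features. Rhox5, at 0.448, was lower by about as much as Eppin.

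Genes that earlier work tied to Rhox5 were unevenly detected in Sertoli cells. Of the 7 listed, 5 had enough UMIs to compare 144 with 0 h, and 1 was at least 2-fold higher, Pparg, with 19 against 3 UMIs, and 0 lower, against 11.5% and 19.3% of all features. Adipor2, an adiponectin receptor, stood at 50.7, 81.3, 77.3 and 58.9 CPM at 0, 144, 350.4 and 556.8 h, with a ratio of 1.60 (1.505 to 1.71) for 144 over 0 h. Ins2, which codes for insulin, stood at 53.0 CPM at 0 h, 33.9 CPM at 144 h and 2.03 CPM at 350.4 h, where it was lower than at 144 h by a ratio of 0.060 (0.022 to 0.131). Rhox5 and Ins2 thus stood in opposite order over these 3 libraries. From 144 to 350.4 h Retn and Pparg were also at least 2-fold lower, each with 1 against 19 UMIs. Their ratio of 0.492 had an interval from 0.0118 to 3.10 that spans 1. Ppargc1a and Adipor2 passed 2-fold in neither direction, while 15.0% of all features were higher and 8.88% lower.

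The genes next to the Rhox block served as a check on the region. The 10 protein coding genes on each side were taken, and 15 of the 20 could be compared between 144 and 0 h in Sertoli cells. Of the 15, 3 were at least 2-fold higher (Sept6 3.37-fold, Sowahd 14.8-fold and Tmem255a 95.9-fold), and 1 was lower (Rpl39, 0.387), against 11.5% and 19.3% of all features, with a median log2 ratio of 0.12. From 144 to 350.4 h 1 of 15 passed 2-fold, Tmem255a, which was lower (0.210), while 15.0% of all features were higher and 8.88% lower. Sowahd lies 163 kb from the block on the centromeric side and Tmem255a 66.6 kb on the telomeric side.

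The late Sertoli cells were few under the limit of 20% mitochondrial UMIs, so the last step was compared with cells of under 50%. With that limit the libraries held 861 Sertoli cells at 350.4 h, 408 at 556.8 h and 768 at 763.2 h. Of these, 294 at 556.8 h lay in a cluster that scored 1.26 for Sertoli. Another 670, at 763.2 h, lay in one that scored 1.39 for Sertoli and 1.14 for elongating spermatids. The deep cluster followed below scored 2.99. Whether the low-scoring barcodes mix Sertoli and germ cell transcripts was not tested. Rhox5 then stood at 560 CPM (546 to 575), 179 CPM (166 to 192) and 298 CPM (280 to 317), and Rhox8 at 1507, 650 and 768 CPM. Both genes were lowest at 556.8 h and in between at 763.2 h, with ratios for 763.2 over 556.8 h of 1.67 (1.51 to 1.84) for Rhox5 and 1.18 (1.12 to 1.25) for Rhox8. Neither of the 2 members tested passed 2-fold in this step, while 11.2% of all features were at least 2-fold higher and 4.41% lower.

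Most of the late Sertoli barcodes were shallow, so a single cluster of deep cells was also followed (291, 103 and 76 cells, medians of 30145, 23458 and 19442 UMIs). In it Rhox5 stood at 561 CPM at 350.4 h, 244 CPM at 556.8 h and 453 CPM at 763.2 h. The ratios were 0.434 (0.398 to 0.473) for 556.8 over 350.4 h and 1.86 (1.67 to 2.08) for 763.2 over 556.8 h. Rhox8 stood at 1508, 882 and 1033 CPM, Eppin at 463.3, 243 and 343 CPM and Tsx at 1045, 691 and 855 CPM. All 4 genes were thus lowest at 556.8 h in this cluster. The size of the Rhox5 difference between 350.4 and 556.8 h depended on the cells taken: on the log2 scale it was −1.16 as given first and between −3.59 (cells under 10% mitochondrial UMIs) and −0.98 (every cell weighing the same) under the other settings, and that of Rhox8 was −0.80, with a range of −2.87 to −0.77. For 763.2 over 556.8 h the log2 ratio of Rhox8 was 0.24 and reached 1.02 with each library clustered alone. With the unnamed clusters that scored highest for Sertoli taken in, under the limit of 20%, this last step was 0.062 for Rhox5 and −0.018 for Rhox8, so it depends on which cells are taken.

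**Figure D3:**
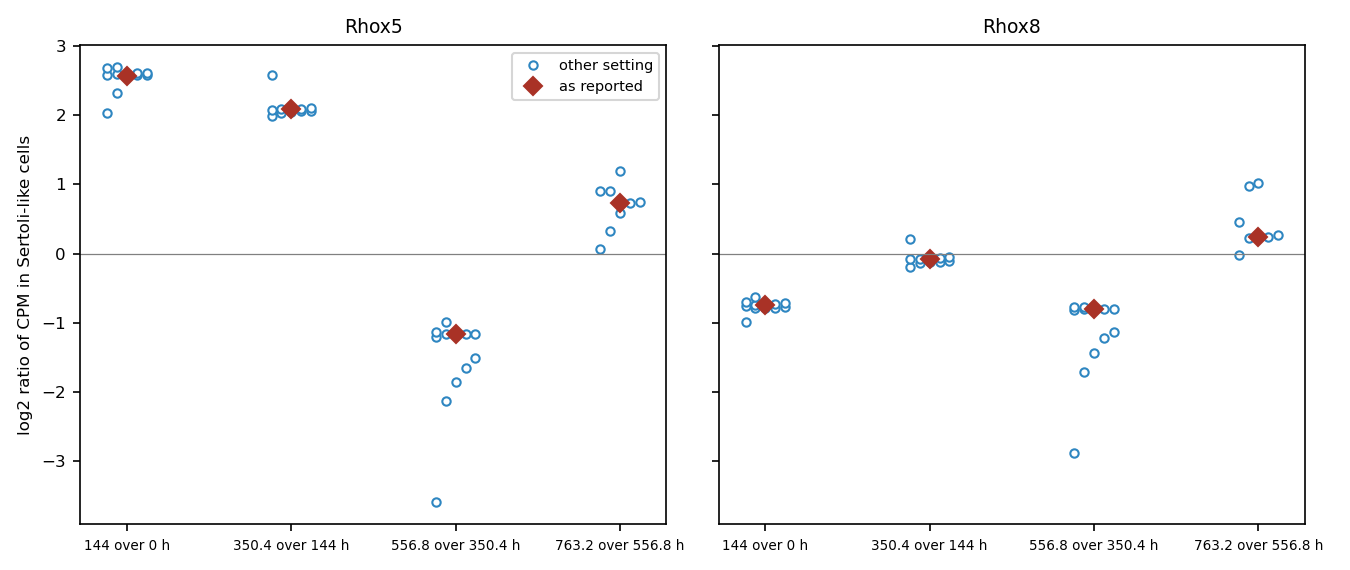
Log2 ratios of Rhox5 and Rhox8 CPM between neighbouring libraries in Sertoli-like cells, as reported (diamonds) and under the other settings (open circles). The Rhox5 points for 144 over 0 h lie between 2.04 and 2.69 and those for 556.8 over 350.4 h between −3.59 and −0.98; the Rhox8 points for 350.4 over 144 h and for 763.2 over 556.8 h lie on both sides of 0.

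Rhox10 marked the earliest germ cells. In undifferentiated spermatogonia it stood at 76.5 CPM at 0 h (1531 UMIs), 76.2 CPM at 144 h (846 UMIs), 38.5 CPM at 350.4 h (84 UMIs) and 60.2 CPM at 763.2 h (30 UMIs). The levels of 0 and 144 h were close, with a ratio of 0.996 (0.914 to 1.08), and that of 350.4 h was lower than that of 144 h by a ratio of 0.506 (0.399 to 0.633). With each library clustered alone the 144 over 0 h value was 1.19 on the log2 scale in place of −0.01, so the likeness of these libraries holds only for the joint clustering. At 556.8 h only 10 cells were named undifferentiated spermatogonia, too few for a level.

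In differentiating spermatogonia, which express the receptor Kit and no longer serve as stem cells, Rhox10 stood at 9.86 CPM at 144 h and 1.38 CPM at 350.4 h. At meiotic entry it stood at 0.647, 0.892, 0 and 0 CPM at 144, 350.4, 556.8 and 763.2 h. The ratio of differentiating over undifferentiated spermatogonia within the 144 h library was 0.129 (0.110 to 0.152), and that of meiotic entry over differentiating spermatogonia 0.0656 (0.0351 to 0.113). Each step was thus lower by several fold. The fixed undifferentiated markers, from which the undifferentiated class was named, were all detected in it, 8 of 8 in each of the 4 libraries. All 8 were also detected in differentiating spermatogonia at 144 h, so detection alone does not set the class apart. At 144 h they summed to 399 CPM in undifferentiated and 35.4 CPM in differentiating spermatogonia. Nanos2, a stem cell regulator, stood at 5.45, 4.32, 5.50 and 0 CPM in undifferentiated spermatogonia of the 4 libraries (109, 48, 12 and 0 UMIs).

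Rhox13 and Rhox1 differed in their course through the spermatogonia. Rhox13 in undifferentiated spermatogonia stood at 24.3, 32.8, 27.1 and 20.1 CPM at 0, 144, 350.4 and 763.2 h. In differentiating spermatogonia it stood at 118 CPM at 144 h and 165 CPM at 350.4 h, and at meiotic entry at 391, 351, 280 and 260 CPM from 144 to 763.2 h. Within the 144 h library the ratio was 3.60 (3.22 to 4.03) for differentiating over undifferentiated cells and 3.32 (3.16 to 3.48) for meiotic entry over differentiating cells. The second step was 2.12 (1.90 to 2.37) within the 350.4 h library. Rhox13 was thus higher at each of these steps in both libraries, and its level at meiotic entry was highest at 144 h, with overlapping intervals for the 2 lowest libraries, 556.8 and 763.2 h. The meiotic entry class of those late libraries depended on the genes used for clustering: with 1 more gene let in, an alternative chosen after seeing the data, all 116 of its cells at 556.8 h and 141 of 142 at 763.2 h were named leptotene and zygotene spermatocytes, while 1543 of 1543 at 144 h and 77 of 79 at 350.4 h kept their name. Under it 193 of the 359 undifferentiated spermatogonia of 144 h and 1 of the 34 of 763.2 h also kept theirs.

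Rhox1 was high, then low, then high again. In undifferentiated spermatogonia it stood at 46.5, 28.6, 33.9 and 42.2 CPM at 0, 144, 350.4 and 763.2 h. In differentiating spermatogonia it stood at 9.92 CPM at 144 h and 8.75 CPM at 350.4 h, and at meiotic entry at 45.0, 59.8, 44.4 and 37.5 CPM from 144 to 763.2 h. The ratio of differentiating over undifferentiated cells at 144 h was 0.347 (0.288 to 0.418). That of meiotic entry over differentiating cells was 4.54 (3.87 to 5.35) at 144 h and 6.83 (4.92 to 9.44) at 350.4 h. The dip in differentiating spermatogonia was thus present in both libraries that held the class. The 13-letter pair of receptor cores printed above lies just after the start of this gene, and whether any receptor uses it was not tested.

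Of the 5 members with enough UMIs, 1 was at least 2-fold higher in differentiating than in undifferentiated spermatogonia at 144 h (Rhox13, background 9.37%) and 3 were lower (Rhox10, Rhox1 and Rhox5, background 17.0%). At meiotic entry against differentiating spermatogonia 3 of 6 were higher (Rhox1, Rhox13 and Rhox11, background 14.4%) and 1 was lower (Rhox10, background 24.1%). Rhox11 in the latter rested on 38 against 5 UMIs (ratio 6.48, 2.55 to 21.1).

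Single deep germ cells showed the same succession. Among undifferentiated spermatogonia of at least 10000 UMIs, Rhox10 was found in 71.9% and Rhox1 in 71.1% of 360 cells at 0 h, and both in 55.6%. At 144 h the shares were 77.3%, 63.9% and 50.6% of 269 cells, at 350.4 h 64.1%, 73.4% and 46.9% of 64 cells and at 763.2 h 40%, 50% and 23.3% of 30 cells. Rhox10 was found in 19.8% of 582 deep differentiating spermatogonia at 144 h and in 2.87% of 418 at 350.4 h, while Rhox13 was found in 93.3% and 97.4%. At meiotic entry Rhox13 was found in 99.7% of 1028 deep cells at 144 h and Rhox1 in 52.6%. Most deep undifferentiated spermatogonia of the first 3 of these libraries thus held Rhox10, and nearly every deep cell at meiotic entry held Rhox13. The lower Rhox10 share at 763.2 h rests on 30 cells and unthinned counts. Undifferentiated spermatogonia had median depths of 28374, 25364 and 14159 UMIs at 144, 350.4 and 763.2 h. By CPM, given above, Rhox10 was no lower at 763.2 than at 350.4 h.

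Genes of meiotic entry were set beside the members. Stra8, the retinoic acid target that licenses meiosis, stood at 20.4, 498, 46.8 and 120 CPM in undifferentiated spermatogonia at 0, 144, 350.4 and 763.2 h, at 406 and 119 CPM in differentiating spermatogonia at 144 and 350.4 h, and at 1634, 1439, 1125 and 849 CPM at meiotic entry. Stra8 was thus high in undifferentiated spermatogonia at 144 h, where Rhox13 stood at 32.8 CPM. Of the 9 listed meiotic entry genes that could be compared between meiotic entry and differentiating spermatogonia at 144 h, 4 were at least 2-fold higher (Stra8, Gm4969, Rec8 and Sycp3) and 4 at least 2-fold lower (Nanos3, Dmrt1, Sohlh1 and Kit), against 14.4% and 24.1% of all features. Stra8, Gm4969 and Rec8 are also among the markers that named the class, as are Sohlh1 and Kit for differentiating spermatogonia, so their order describes the classes. Dmrt1, which keeps spermatogonia from entering meiosis, stood at 226 CPM in undifferentiated and 290 CPM in differentiating spermatogonia at 144 h and at 118 CPM at meiotic entry.

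Germ cells whose markers gave no single stage were a large class at 350.4 h (1672 cells) and at 763.2 h (3800 cells), with 37 cells at 144 h and 316 at 556.8 h. Rhox13 stood there at 302, 251, 81.9 and 51.2 CPM in order of time and Rhox1 at 15.2, 16.7, 9.51 and 3.0 CPM. Rhox10 stood at 18.1 CPM in those of 556.8 h, the library without a class of undifferentiated spermatogonia, and at no more than 1.36 CPM in the others. These cells enter none of the comparisons between stages.

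Both germ cell members were lower in the next classes. In leptotene and zygotene spermatocytes Rhox13 stood at 31.5, 17.3, 122 and 84.3 CPM and Rhox1 at 10.5, 3.93, 18.1 and 15.8 CPM at 144, 350.4, 556.8 and 763.2 h. Both were highest at 556.8 h there, and the 144 and 350.4 h classes held 24 and 94 cells. Against meiotic entry in the 556.8 h library the ratio was 0.434 (0.382 to 0.494) for Rhox13 and 0.407 (0.295 to 0.573) for Rhox1. All 116 cells of that meiotic entry class were named leptotene and zygotene spermatocytes with 1 more gene let into the clustering. The step thus holds only for the clustering as reported. Of 5 members 3 were at least 2-fold lower in this step (Rhox1, Rhox11 and Rhox13, background 12.0%) and 1 was higher, Rhox5, with 24 against 1 UMI and an interval from 0.432 to 109 that spans 1 (background 11.5%).

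From zygotene to pachytene the X chromosome is silenced in male germ cells, and the members were compared with other X-linked genes across that step. In pachytene or later spermatocytes Rhox13 stood at 0.942, 0.660 and 0.858 CPM and Rhox1 at 0.0286, 0.103 and 0 CPM at 350.4, 556.8 and 763.2 h. In the 556.8 h library the ratio of pachytene or later over leptotene and zygotene cells was 0.00542 (0.00393 to 0.00730) for Rhox13, 1191 against 45 UMIs, and 0.00568 (0.00225 to 0.0119) for Rhox1, 177 against 7 UMIs. Both genes were thus lower by over 100-fold. Of 5 members 4 were at least 2-fold lower (Rhox1, Rhox5, Rhox11 and Rhox13, background 36.7%) and 0 higher (background 21.9%). Rhox8, at 4.50 CPM in leptotene and zygotene and 4.3 CPM in pachytene or later cells, had a ratio of 0.956 (0.694 to 1.34). Rhox5 and Rhox8 in pachytene or later cells amounted to 2.41% and 10.3% of the summed Sertoli markers there, against 1.93% and 6.71% in the Sertoli cells of the same library. With 5% free RNA subtracted, the log2 ratio of Rhox13 was −11.42 in place of −7.53.

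All 10 of the X-linked genes of most cells were at least 2-fold lower across the same step, as were 36.7% of all 15128 features. Their median log2 ratio was −5.97, against −0.40 over all features. Of 10 X-linked germ cell genes tested 8 were lower (median −6.33), and 2, Fthl17a and Slxl1, were not. All 13 of the other Rhox features with enough UMIs were lower (median −6.29). Of 17 neighbours 11 were lower and 0 higher (median −4.77), and 6 did not pass 2-fold in either direction: Sept6, Akap14, Gm9, Tmem255a, Cypt15 and Cypt14. Rhox1 and Rhox13, at −7.46 and −7.53, lay near the low end of these lists, and the median of the 5 members was −1.59.

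**Figure D4:**
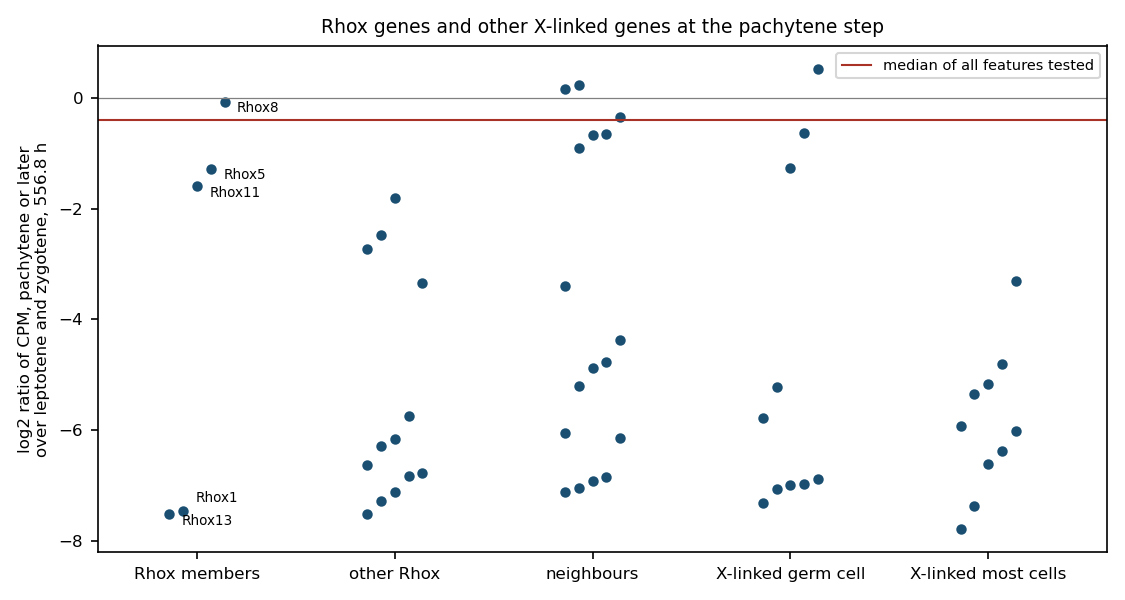
Log2 ratio of CPM in pachytene or later over leptotene and zygotene spermatocytes of the 556.8 h library, 1 point per gene with at least 20 UMIs, for Rhox members and 4 X-linked lists. The line marks the median over all features, −0.40; Rhox1 and Rhox13 lie at −7.46 and −7.53 and Rhox8 at −0.07.

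Rhox11 was the member of round spermatids. It stood at 54.8 CPM (83 UMIs in 151 cells) at 350.4 h, 12.1 CPM (81 UMIs in 713 cells) at 556.8 h and 21.4 CPM (805 UMIs in 3021 cells) at 763.2 h. In pachytene or later spermatocytes it stood at 0.143, 0.543 and 0.719 CPM and in elongating spermatids at 5.23 (1 UMI), 3.55 and 3.31 CPM in the same libraries. The round spermatid level was thus the highest of the 3 classes in each library. Within the 763.2 h library the ratio of round spermatids over pachytene or later cells was 29.7 (20.1 to 45.7) and that of elongating over round spermatids 0.155 (0.113 to 0.207). The first of these moved with the processing, from 4.89 on the log2 scale to between 2.26 (every cell weighing the same) and 6.32 (5% free RNA subtracted), and stayed above 2-fold throughout these settings.

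Rhox11 had no UMI in undifferentiated spermatogonia at 0 h, which allows a level of up to 0.150 CPM (3 UMIs). It was present at low levels around meiosis, at 1.76, 0, 5.55 and 4.26 CPM at meiotic entry and 0, 0, 1.63 and 1.97 CPM in leptotene and zygotene spermatocytes from 144 to 763.2 h, with at most 38 UMIs per class and library. Thinned to 1000 UMIs, 1.62% of round spermatids at 763.2 h held a Rhox11 UMI, against 0.582% of pachytene or later cells.

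Of the 4 members with enough UMIs, 2 were at least 2-fold higher in round spermatids than in pachytene or later cells at 763.2 h (Rhox11 and Rhox8, background 30.0%) and 0 were lower (background 35.1%). Rhox8 stood at 9.29 against 3.76 CPM there, 17.0% and 9.15% of the summed Sertoli markers of those cells. Rhox13 stood at 4.62, 2.24 and 1.17 CPM in round spermatids at 350.4, 556.8 and 763.2 h, and its ratio over pachytene or later cells at 763.2 h was 1.36 (0.840 to 2.23). From round to elongating spermatids 0 of 4 members were higher (background 9.73%) and 2 were lower (Rhox11 and Rhox13, background 56.3%). The X-linked lists were mostly higher in round spermatids than in pachytene or later cells: 10 of 11 X-linked germ cell genes (median log2 ratio 2.71), 7 of 8 X-linked genes of most cells (1.13), 4 of 4 other Rhox features (2.29) and 10 of 14 neighbours (3.16), against a median of −0.33 over all features.

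The genes whose levels ran most like those of each member were sought over 49 points, each a class in a library, among 12697 genes. The points share libraries and classes, so Pearson's r is a description and carries no p. Rhox10 ran with Lin28a, an RNA-binding protein of early germ cells (r = 0.96), Egr4 (0.96), Phlda2 (0.96), Piwil4, a partner of small RNAs in transposon silencing (0.95), and Igfbpl1 (0.95). Rhox13 ran with Fam90a1b (0.96), Tex11, an X-linked meiotic gene (0.96), Cnksr2 (0.95), Lrr1 (0.94) and Atad5 (0.94). Rhox1 ran with Fthl17c, Magea8 and Xlr5a (each 0.92) and Trap1a and Magea10 (each 0.91). Rhox8 ran with Wfdc10 and Gstm6 (each 0.97) and Cst12, Cst9 and Clec12b (each 0.96), of which Cst9 is a Sertoli marker used to name the class. Rhox5 ran with Trim7 and Vdr, the vitamin D receptor (each 0.91), Slc7a4 and Wnk4 (each 0.90) and Uckl1os (0.89). Rhox11 ran with Samt2 and Prr32 (each 0.93), Fam47c (0.92), Muc4 (0.90) and Cldn34b4 (0.90). Between members the highest values were 0.79 for Rhox1 with Rhox13, 0.64 for Rhox5 with Rhox8 and 0.57 for Rhox1 with Rhox10.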

How the data were processed

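Each library was deposited as a matrix of UMI counts per gene and barcode, which the authors made with Cell Ranger 3.0.2, per the file headers. Besides that, the submitters' processing notes name mm10 and Seurat 4.3.0.1, with no role stated. Alignment settings and any removal of barcodes before deposit were not given in the sources used here. Times follow the sample titles.

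From the counts, barcodes were kept that had 1000 UMIs or more, 500 genes or more and a mitochondrial share under 20%, and those with a scrublet doublet score over 0.25 were removed (scanpy 1.11.5). The kept cells of all 5 libraries were clustered together (3000 variable genes, 40 principal components, 15 neighbours, Leiden resolution 2), which gave 64 clusters. A cluster was named from fixed marker lists of 16 classes, as the class with the highest score where that score reached 0.75 and led the next by 0.25 with at least 3 markers at 20 CPM or more. It was left without that name where another class had more markers among its 10 leading genes, or where none of its own was there and either its median UMI count was under 0.333 of that of its libraries or it shared 5 or more of the 10 with a better scored cluster of another class. Clusters of germ cells with no single stage and clusters with no class were kept apart. These naming thresholds were set after the data had been seen. UMIs were then summed per class and library, for classes of at least 20 cells, and divided by the sum of all UMIs of those cells to give CPM, so a class that a few genes dominate lowers the CPM of all others.

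CPM carry exact 95% Poisson intervals, ratios exact conditional binomial intervals, and both cover counting error only. No test over samples was possible with 1 library per time. A gene was counted as higher or lower at 2-fold or more where the pair of sums held at least 20 UMIs together, in 10 comparisons across all features. A ratio against 0 UMIs uses a floor of 3. The scripts were tested on simulated data.

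The members and gene lists were chosen with earlier results of these data known. The text names the 7 members, the members of the lists by counts, the neighbours past 2-fold and, for each member with at least 200 UMIs, the 5 genes with the highest Pearson correlation of log2(CPM + 5). A further gene of the rule and of the androgen list is not reported here. Other list genes are named as examples after their values were seen. Promoter windows are RefSeq's (GRCm38.p6).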

Additional observations from a re-analysis of the deposited data

Results flagged for a closer look

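Some cells without a class held Rhox5 or Rhox8 above the mean level of the library with the most cells in their cluster. They enter none of the comparisons as reported, and no explanation was tested. Clusters 8, 22, 45 and 61 scored highest for Sertoli, and the score of cluster 8, 3.07, lay within the 1.98 to 3.25 of the named Sertoli clusters. Cluster 8, mainly of the 144 h library (1091 cells, median 1663 UMIs), held 186 CPM of Rhox5 (169 to 204), against 46.9 CPM over the library, and 2151 CPM of Rhox8, against 564.5 CPM. Cluster 22, mainly of the 763.2 h library (645 cells, median 2078 UMIs), held 142 CPM of Rhox5, against 5.26 CPM over the library, and 484 CPM of Rhox8, against 20.4 CPM. Cluster 45, mainly of the 556.8 h library (264 cells, median 2999 UMIs), held 67.3 CPM of Rhox5, against 5.08 CPM, and 303 CPM of Rhox8, against 18.7 CPM. Cluster 47, mainly of the 350.4 h library (256 cells), held 166 CPM of Rhox8, against 75.8 CPM. Cluster 61 (34 cells) was mixed, with 1, 12, 13 and 8 cells of 0, 144, 350.4 and 556.8 h. It held 450 CPM of Rhox8, above the 75.8 CPM of the 350.4 h library and below the 564.5 CPM of the 144 h library.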

How the results depend on the processing

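No paired analysis was possible because each time had 1 library and the labels give no replicate numbers. Values here are log2 ratios, and the cause of each move was not tested. Over the main results and their settings, 74 values moved by less than the counting interval and 48 by more. With cells under 10% mitochondrial UMIs, Rhox5 in Sertoli cells gave 2.04, 2.58, −3.59 and 1.20 for the 4 steps from 0 to 763.2 h (as reported 2.57, 2.08, −1.16 and 0.74), Rhox8 gave −0.99, 0.21, −2.87 and 0.97 (as reported −0.75, −0.09, −0.80 and 0.24), and Rhox11 in round spermatids over pachytene cells gave 5.71 (as reported 4.89). With cells under 50%, Rhox5 gave 1.99 for 350.4 over 144 h and −1.65 for 556.8 over 350.4 h, Rhox8 −0.71, −0.20 and −1.21 for the first 3 steps and Rhox11 3.07. With cells of at least 5000 UMIs, Rhox5 gave 2.69, −1.50 and 0.33 and Rhox8 −0.79, −1.13 and 0.45 for all but the second step, and Rhox11 5.69. With no doublets removed, Rhox8 gave −0.72 and −0.14 for the first 2 steps and Rhox11 3.02. With each library clustered alone, Rhox5 gave −2.13 and 0.90 and Rhox8 −1.71 and 1.02 for the last 2 steps, and Rhox10 in differentiating over undifferentiated spermatogonia gave −2.65 (as reported −2.95). With every cell weighing the same, Rhox5 gave 2.32, −0.98 and 0.59 for all but the second step, Rhox8 −0.77 for the first, Rhox11 2.26 and Rhox13 at meiotic entry over differentiating cells 1.66 (as reported 1.73). Without mitochondrial UMIs in the CPM, Rhox5 and Rhox8 for 144 over 0 h gave 2.69 and −0.62. Leiden resolution 1 gave −0.78 for Rhox8 at the first step, and 5% free RNA subtracted gave 6.32 for Rhox11. Chosen after seeing the data, the deep late cluster gave 0.90 for Rhox5 at the last step, and leaving out the 0 h cluster that holds Rhox10 gave −0.79 for Rhox8 at the first. With 1 more gene let into the clustering, also chosen after seeing the data, 10 of these values could be computed and stayed within their counting intervals, but no cell was named meiotic entry at 556.8 or 763.2 h. Outside them it gave −0.16 for Rhox10 and −0.44 for Rhox1 in undifferentiated spermatogonia for 144 over 0 h (as reported −0.01 and −0.70). With the unnamed clusters that scored highest for Sertoli, again chosen after seeing the data and under the limit of 20%, Rhox5 gave −1.85 and 0.062 for the last 2 steps, and Rhox8 −0.72, −0.13, −1.44 and −0.018 for all 4. Of the results compared here, 3 took both signs: Rhox8 for 350.4 over 144 h, Rhox8 for 763.2 over 556.8 h, and Rhox10 in undifferentiated spermatogonia for 144 over 0 h (−0.16 to 1.19). Some settings gave no value, since too few cells were named: meiotic entry with cells under 50% and with each library clustered alone (for 350.4 over 144 h also with cells of at least 5000 UMIs), and the last Sertoli step with no doublets removed and at resolution 1. At 1.5-fold, 3 neighbours in place of 1 were lower for 144 over 0 h. Depth limits the members in the small classes: with 0 UMIs, lymphocytes at 0 h allow up to 51.0 CPM, undifferentiated spermatogonia at 763.2 h allow up to 6.02 CPM and peritubular myoid cells up to 10.6 CPM.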

Other observations

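The multi-copy Rhox families outside the 7 members were summed by family, since their copies are nearly alike and how reads were split between them is uncertain. Rhox2 (8 features) was highest in differentiating spermatogonia and at meiotic entry, with 98.7 and 104 CPM at 144 h and 77.7 and 85.7 CPM at 350.4 h, against 36.6 CPM in undifferentiated spermatogonia at 144 h. In leptotene and zygotene spermatocytes it stood at 52.5, 23.2, 55.6 and 60.9 CPM from 144 to 763.2 h, and in pachytene or later cells at 0.428, 0.455 and 0.526 CPM. Rhox3 (7 features) was highest in round spermatids, with 42.2, 23.3 and 16.7 CPM at 350.4, 556.8 and 763.2 h, the class in which Rhox11 was also highest. Rhox4 (8 features) stood at 7.25 and 9.10 CPM in undifferentiated spermatogonia at 0 and 144 h. Rhox7 (2 features) stood at 43.6 CPM in the same class at 0 h and reached 69.6 CPM at meiotic entry at 350.4 h. Rhox6 and Rhox9 (1 feature each) stayed at or under 2.73 and 4.02 CPM.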
